A study of Mus musculus with 3 samples.

Results

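The genes of glycolysis and of the response to low oxygen were followed in the esophagus, stomach and intestine primordia of the mouse gut. The set holds 34 named genes, taken out of 16998 genes that could be named on the array. They were chosen as enzymes, transporters and regulators of these pathways, with earlier results of these data known. All 34 had at least 1 probe, 49 probes in all. Each organ was dissected from ICR embryos, an outbred strain, at embryonic day 11.5 and was measured on 1 Agilent array with Cy3-labelled RNA. None of the 3 samples carries a genetic change or received a treatment according to the labels, which state neither the number of embryos nor any pooling. With 1 array per organ no difference below has a replicate check, no test was run, and precision is limited by having 3 arrays. The arrays lay on 1 slide, and position on it cannot be told apart from organ.

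Glycolysis splits glucose to pyruvate in the cytosol. Glucose enters through transporters, is phosphorylated by hexokinases, passes through the hexose and triose phases, and its pyruvate is either reduced to lactate or taken into mitochondria. When oxygen is low, prolyl hydroxylases stop marking the alpha subunit of hypoxia-inducible factor for destruction, and the factor binds short DNA elements and raises the transcription of many glycolytic genes, of Vegfa and of others. Embryos before and during early organ growth are known for active glycolysis.

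The core letters of the hypoxia response element, ACGTG or GCGTG on either strand, were looked for in the 250 bases before each RefSeq transcription start (assembly GRCm38.p6). A promoter was listed for 31 of the 34 genes (not for Slc2a3, Ndrg1 and Epas1), and 28 of the 31 (90.3%) held the letters in at least 1 window. Of 11175 genes measured on these arrays with a window, 57.5% did, and of all 32851 windows of this length 38.6% did, against 36 of 44 windows (81.8%) of the set. With ACGTG alone the shares were 61.3% of the 31 genes and 23.8% of the measured genes. CACGTG, the E-box, holds ACGTG on both strands and was counted as 1 place. A match describes letters only. The stretches below show the matches in capitals. They are given for Pgk1, which differed little between organs, for genes that read highest in esophagus (Slc2a1, Ldha, Bnip3, Ddit4) and for genes that read highest in intestine (Egln1, Egln3). Each runs from 20 bases before the first match to 20 bases after the last, 5′ to 3′ on the gene's strand, in the window with the most matches.
Pgk1 (chrX:106186930-106186993, plus strand): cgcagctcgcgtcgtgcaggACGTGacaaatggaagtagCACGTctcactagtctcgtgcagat
Slc2a1 (chr4:119108664-119108733, plus strand): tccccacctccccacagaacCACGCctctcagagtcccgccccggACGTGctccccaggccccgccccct
Ldha (chr7:46845639-46845794, plus strand): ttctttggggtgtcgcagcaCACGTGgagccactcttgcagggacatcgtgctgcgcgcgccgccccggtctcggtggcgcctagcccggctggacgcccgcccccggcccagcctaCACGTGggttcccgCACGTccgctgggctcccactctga
Bnip3 (chr7:138909517-138909643, minus strand): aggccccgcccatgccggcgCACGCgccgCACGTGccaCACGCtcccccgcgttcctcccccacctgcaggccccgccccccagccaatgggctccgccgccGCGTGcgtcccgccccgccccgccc
Ddit4 (chr10:59951861-59951977, minus strand): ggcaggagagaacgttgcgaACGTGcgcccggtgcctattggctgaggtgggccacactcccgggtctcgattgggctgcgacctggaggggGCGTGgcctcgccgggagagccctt
Egln1 (chr8:124949298-124949400, minus strand): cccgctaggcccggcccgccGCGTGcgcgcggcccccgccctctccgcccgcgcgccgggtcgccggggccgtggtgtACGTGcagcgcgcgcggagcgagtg
Egln3 (chr12:54204079-54204123, minus strand): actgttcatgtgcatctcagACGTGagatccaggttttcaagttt
Only genes with a match could be shown, so that all of these carry the letters says nothing about their levels. There were 4 places in Bnip3, 3 in Ldha, 2 in Pgk1, Slc2a1, Ddit4 and Egln1, and 1 in Egln3. The window of Adm, lower in intestine, held 2 places, and those of Gpi1, Tpi1 and Eno2 held 0.

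Each level given here is the log2 signal of a probe relative to the 75th percentile of its array, and each difference is in log2 units, so that 1 unit is 2-fold. A gene with several probes is represented by the one with the highest mean. Levels of different probes are not comparable, so only organs are compared. For scale, probes of 1 gene differed by a median SD of 0.25 log2 units for stomach minus esophagus, 0.46 for intestine minus esophagus and 0.31 for intestine minus stomach, and spots of 1 probe by 0.082 to 0.103 within an array. On all 3 arrays 67.9% to 74.0% of spots were well above background. The organ labels were checked with summed marker genes, and each sum was highest in its own organ. Barx1, Sox2 and Nkx6-2 summed to 27.8 times the 75th percentile in stomach against 3.89 in esophagus and 0.435 in intestine. Sox2 by itself was lower in stomach than in esophagus (−0.47). Sox2, Trp63 and Pax9 summed to 3.85 in esophagus, 1.78 in stomach and 0.173 in intestine. Cdx2, Isx, Vil1 and Fabp2 summed to 8.98 in intestine against 0.296 in stomach and 0.052 in esophagus. RNA of other tissues was present too. Heart genes summed to 132 in esophagus, 3.55 in stomach and 4.12 in intestine (11 of 11 well above background in esophagus, and in the others all but Myl2), and liver genes to 11.6, 10.1 and 92.6 (9 of 9 in intestine, all but Ttr elsewhere). Because whole organs were measured, fewer cells of a type and less RNA per cell cannot be told apart.

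Most of the set differed little between the organs. Of the 33 genes with a value in each comparison (all but Epas1), 26 (78.8%) stayed within 1 log2 unit over the organs and 15 (45.5%) within 0.5 units. Among all 12864 genes measured on all 3 arrays these shares were 77.3% and 40.7%. The likeness depends on the scaling: after median centring 81.8% and 45.5% of the set lay within these limits, against 63.8% and 22.1% of all genes, and the median range over the organs was 0.55 against 0.82. For stomach against esophagus 1 of 33 genes (3.03%) was at least 2-fold apart, beside 9.85% of all genes, with 0 higher and 1 lower beside 4.14% and 5.71%. In intestine against esophagus 5 of 33 (15.2%) were apart, beside 20.7% of all genes, with 2 higher and 3 lower beside 8.74% and 12.0%. In intestine against stomach 3 of 33 (9.09%) were apart, beside 12.4%, with 2 higher and 1 lower beside 4.96% and 7.47%. In each comparison the share of the set was no larger than that of all genes.

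**Figure D1:**
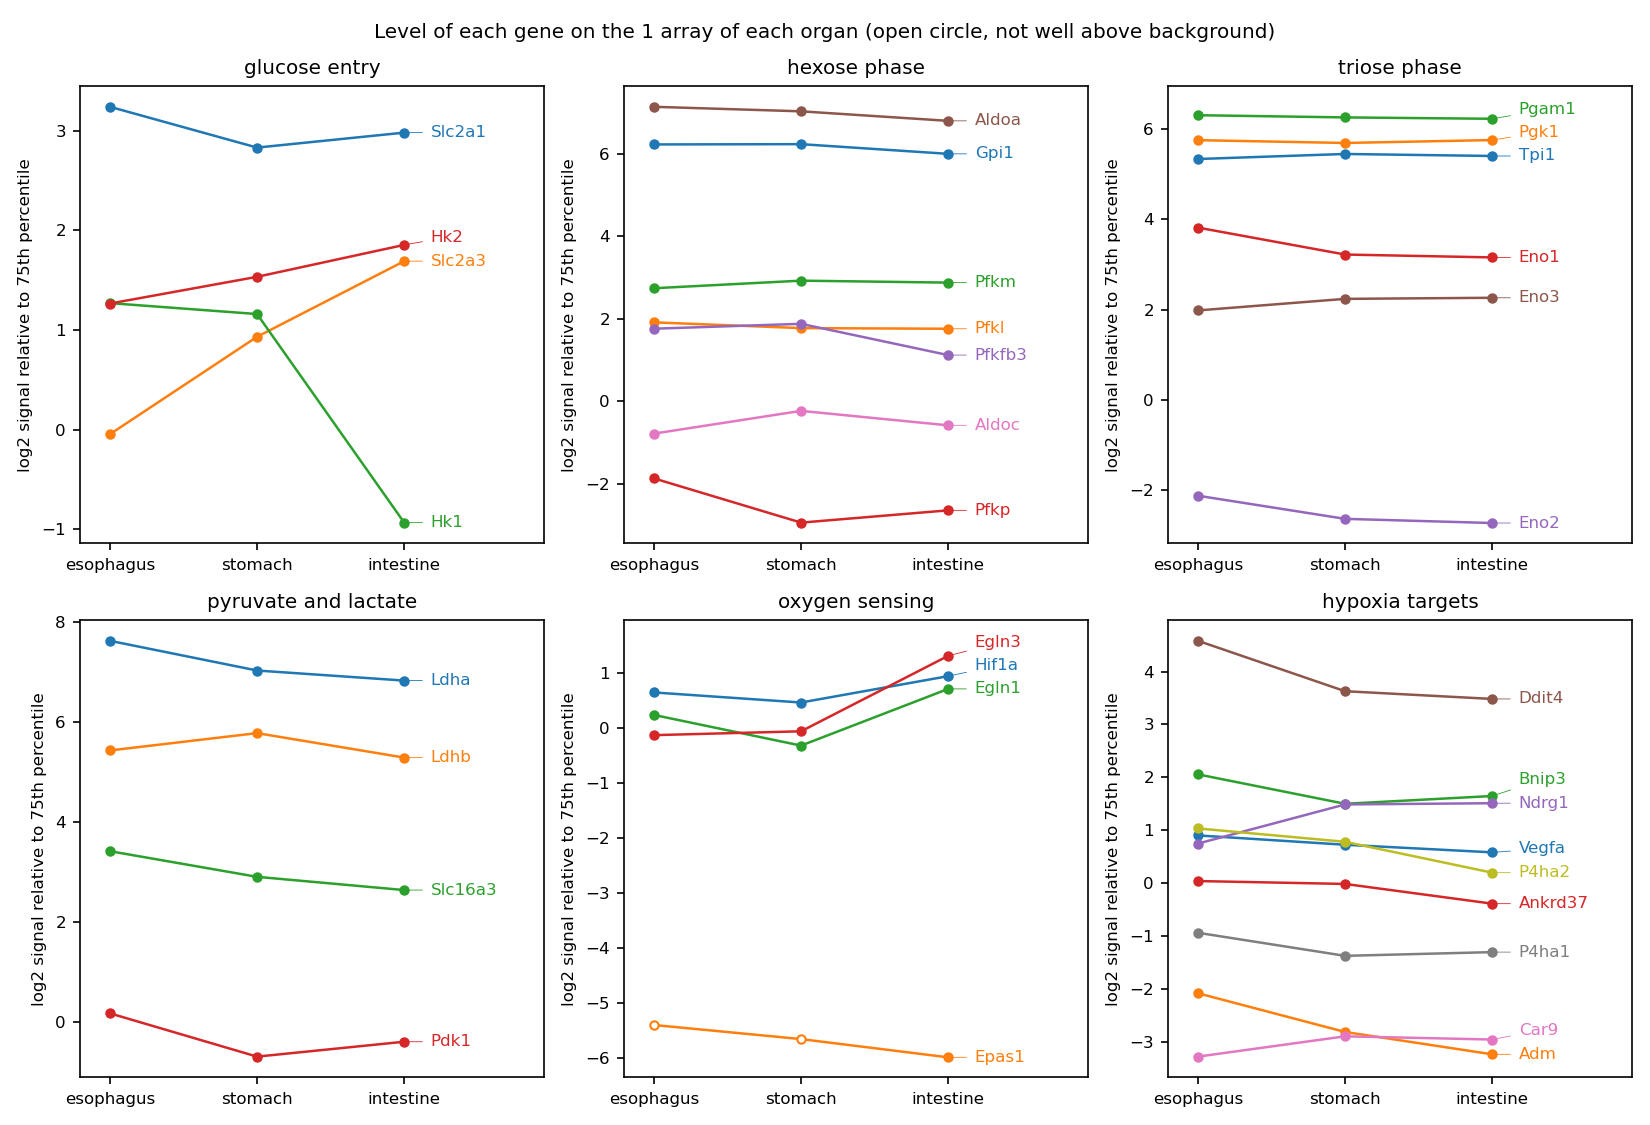
Level of each of the 34 genes (y axis, log2 signal relative to the array's 75th percentile) on the 1 array of each organ (x axis), in 6 panels by role, with open circles where the probe was not well above background. Of the 33 genes measured on all 3 arrays 26 stay within 1 log2 unit, Slc2a3 goes from −0.04 in esophagus to 1.69 in intestine, and Hk1 from 1.27 to −0.93.

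At glucose entry the genes differed in opposite directions. Slc2a3, a high-affinity glucose transporter known from neurons and placenta, read −0.04 in esophagus, 0.93 in stomach and 1.69 in intestine. Slc2a3 has 1 probe. Its level was lowest in esophagus, stomach lay just under 2-fold above (0.98), and intestine stood 3.33-fold above it (1.74), a larger difference than that of 92.3% of all genes. Slc2a1, the widespread basal transporter, read 3.24, 2.83 and 2.98, so that no 2 organs differed by 2-fold. Hk1, the hexokinase of most tissues, read 1.27 in esophagus, 1.16 in stomach and −0.93 in intestine. Intestine lay 4.60-fold below esophagus and 4.26-fold below stomach by this probe. Hk2, the hexokinase of growing and insulin-sensitive tissue, read 1.27, 1.53 and 1.85, in the opposite direction but within 2-fold (0.59 for intestine minus esophagus).

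The size of the Hk1 difference depended on the probe. For intestine minus esophagus its 4 measured probes gave −2.20, −2.19, −1.24 and −0.04, and another probe was not well above background on any array. For intestine minus stomach they gave −2.09, −1.43, −0.54 and 0.08. All match 1 transcript, and which part of it each probe reads is not analysed here. The median over the probes kept Hk1 at least 2-fold lower than in esophagus (−1.72), but left it at −0.98 against stomach.

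In the hexose phase 1 of 7 genes was 2-fold apart for stomach minus esophagus, beside 9.85% of all genes. For intestine minus esophagus and intestine minus stomach it was 0 of 7, beside 20.7% and 12.4%. Gpi1, which turns glucose 6-phosphate into fructose 6-phosphate, read 6.22, 6.23 and 5.99 in esophagus, stomach and intestine. Phosphofructokinase, the committed step, has liver, muscle and platelet isozymes. Pfkl read 1.91, 1.77 and 1.76, and Pfkm read 2.74, 2.92 and 2.87, both with no organ apart. Pfkp, the platelet type, read −1.87, −2.94 and −2.64. It was the only gene of the set at least 2-fold lower in stomach than in esophagus (2.10-fold), and its other probe gave 0.00. It came within 2-fold after normexp correction (−0.66), quantile normalization (−0.93) and median centring (−0.87). Other genes passed in its place in 2 of these settings, Ldha after normexp correction (−1.02) and Ddit4 after quantile normalization (−1.11). Aldoa, the main aldolase, read 7.13, 7.02 and 6.79, and Aldoc, the brain type, −0.79, −0.23 and −0.58. Pfkfb3, which makes the activator fructose 2,6-bisphosphate, read 1.76, 1.87 and 1.12. Its brightest probe differed by −0.64 between intestine and esophagus, while its dimmer probes gave −2.39 and −2.86. Whether Pfkfb3 differs by 2-fold therefore depends on the probe, but all 3 probes were lowest in intestine.

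In the triose phase 0 of 6 genes were 2-fold apart in any comparison, with the larger differences in Eno1 and Eno2. Only 9.85% to 20.7% of all genes were 2-fold apart, so a count of 0 among 6 says little. Tpi1, triose phosphate isomerase, read 5.33, 5.44 and 5.40 in esophagus, stomach and intestine. Pgk1, the first step that returns ATP, read 5.75, 5.69 and 5.75, and its second probe 5.46, 5.47 and 5.59. Pgam1, phosphoglycerate mutase, read 6.30, 6.25 and 6.22. Over Gpi1, Pfkl, Pfkm, Aldoa, Tpi1, Pgk1 and Pgam1, 7 enzymes grouped after their values were seen, no difference between organs exceeded 0.34 log2 units (1.27-fold). The enolases, which form phosphoenolpyruvate, did not share 1 direction. Eno1, the ubiquitous form, read 3.81, 3.22 and 3.16, and Eno2, the neuronal form, −2.12, −2.63 and −2.72. Both were highest in esophagus, by 0.51 to 0.66. Eno3, the muscle form, read 1.98, 2.24 and 2.26 and was lowest there, while skeletal muscle genes summed to 12.8 in esophagus, 2.16 in stomach and 1.21 in intestine (6 of 9 well above background in each, with Ckm and Myf5 in none). Genes such as Aldoa, Eno1, Pgk1, Pgam1, Tpi1 and Ldha have near-identical copies in the mouse genome, and a probe's signal can include them, so these values are uncertain to that extent.

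At the end of the pathway Ldha, Slc16a3 and Pdk1 read highest in esophagus, by less than 2-fold, and Ldhb did not. Ldha, the lactate dehydrogenase subunit that favours lactate formation, read 7.62 in esophagus, 7.03 in stomach and 6.83 in intestine. Its differences from esophagus were −0.59 and −0.80, against −0.22 and −0.17 by its second probe. After normexp correction they passed 2-fold (−1.02 and −1.08). By the probe used Ldha was ordered esophagus, stomach, intestine, and so was Slc16a3, the exporter of lactate, at 3.41, 2.90 and 2.63. Pdk1, the kinase that shuts pyruvate out of mitochondria, read 0.17, −0.70 and −0.40. Ldhb, the subunit of oxidative tissue such as heart, read 5.43, 5.78 and 5.29 and was highest in stomach. For the 4 genes the median difference was −0.55 for stomach minus esophagus and −0.67 for intestine minus esophagus, beside 0.15 and 0.13 for all genes. Heart genes were also far higher on the esophagus array, with a median of −5.79 for stomach minus esophagus. There 11 of 11 were at least 2-fold lower, beside 5.71% of all genes. The part of heart genes in these values was not tested.

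**Figure D2:**
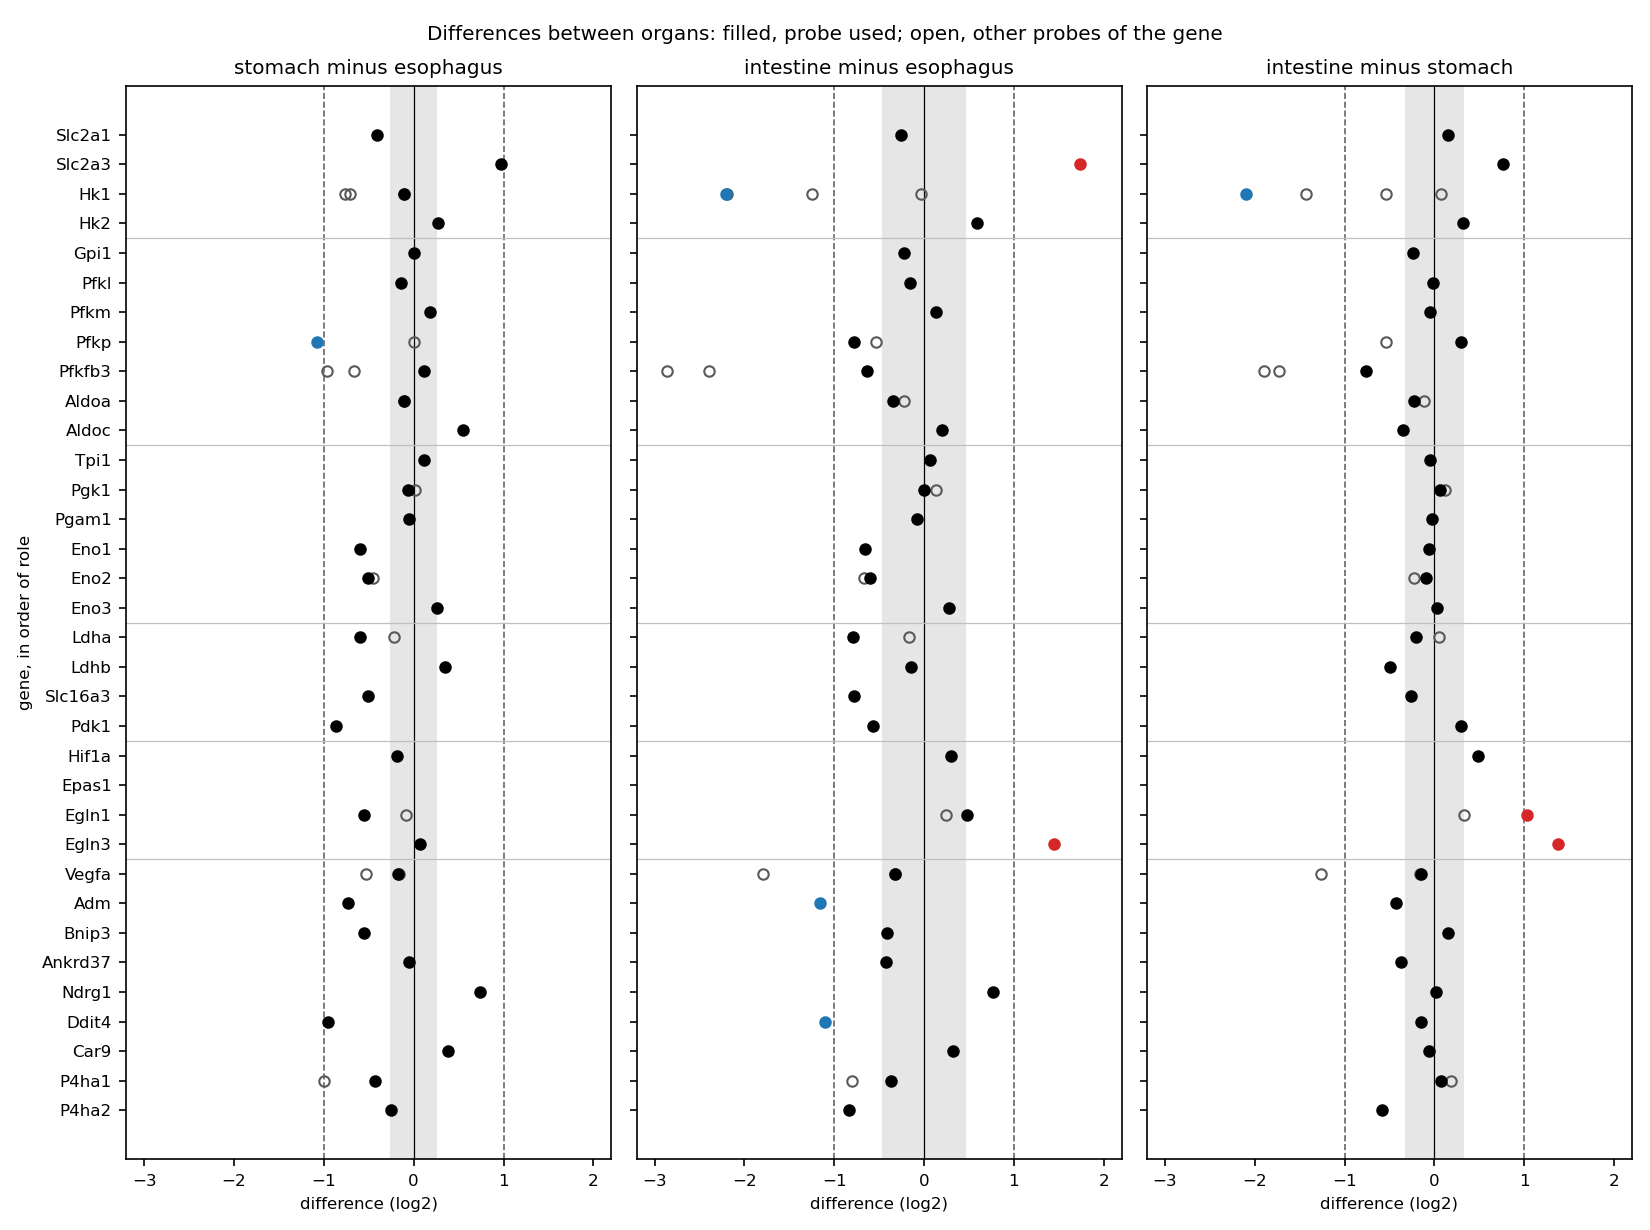
Difference between organs (x axis, log2) for each gene, in order of role (y axis), in 3 panels, 1 for each comparison; filled points are the probe used, open points the other measured probes, red and blue mark at least 2-fold higher and lower, dashed lines are 2-fold and the grey band is the SD between probes of 1 gene. Hk1, Pfkfb3 and Vegfa have probes on both sides of the 2-fold line for intestine minus esophagus, and Epas1 has no point because it was not measured in esophagus or stomach.

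Among the oxygen sensors the hydroxylases stood highest in intestine. Egln3, a prolyl hydroxylase that is itself a known target of the factor, read −0.13 in esophagus and −0.06 in stomach, and 1.32 in intestine, by its 1 probe. The foregut organs lay together, and intestine was 2.72-fold above esophagus (1.45) and 2.59-fold above stomach (1.37). The larger of these exceeded the difference of 89.0% of all genes. Egln1, the main oxygen-dependent hydroxylase, read 0.24, −0.32 and 0.72, so that intestine was 2.05-fold above stomach, though its dimmer probe gave 0.33 and the median of both 0.68. Hif1a, the broadly expressed alpha subunit, read 0.65, 0.47 and 0.95 and differed by less than 2-fold in each comparison. Its protein is controlled after translation, and the array reads RNA only. Epas1, the alpha subunit known from endothelium, had 1 probe that was not well above background in esophagus or stomach. In intestine it was above background at −6.00, under the lowest such level of the other arrays (−5.81 and −5.84), so no fold can be given.

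Liver genes also stood highest in intestine, with 9 of 9 measured members at least 2-fold higher than in stomach, beside 4.96% of all genes. So did endothelial genes by a smaller margin, with a summed level of 16.7 in intestine, 13.7 in esophagus and 11.0 in stomach (8 of 8 well above background in each). Macrophage genes summed to 4.01 in esophagus, 5.24 in stomach and 5.88 in intestine, in the order of Slc2a3 (8 of 8 in each). Neuronal genes summed to 12.6, 18.0 and 15.5, with Snap25 not well above background in any organ. Of the 9 measured, Tubb3, Elavl3, Elavl4 and Stmn2 were at least 2-fold higher than in esophagus in both other organs. That is 44.4% of them, beside 4.14% of all genes for stomach and 8.74% for intestine. For intestine minus esophagus 4 of the 9 were negative. Stmn2 was the only one higher in intestine than in stomach, in the order of Slc2a3. The part of liver, endothelial, macrophage and neuronal cells in the values of Slc2a3, Egln1 and Egln3 was not tested.

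Of 9 targets of the hypoxia response, 7 had negative differences for stomach minus esophagus, where 38.0% of all genes did, and 0 of the 9 were 2-fold apart, beside 9.85% of all genes. For intestine minus esophagus again 7 of 9 were negative, beside 41.2% of all genes. At least 2-fold lower were 2 of 9 (22.2%), beside 12.0% of all genes, and in either direction the shares were 22.2% and 20.7%. Of the 9 differences 5 lay within the SD between probes of 1 gene (0.46). The sign of differences this small depends on the scaling. Ddit4, an inhibitor of mTORC1 signalling that many stresses induce, read 4.58, 3.63 and 3.48. Esophagus was the high organ, and intestine lay 2.14-fold below it. Stomach lay just within 2-fold (−0.95), and past it after quantile normalization (−1.11). Adm, the vasodilator peptide adrenomedullin, read −2.08, −2.81 and −3.23, with intestine 2.23-fold below esophagus. Both fell within 2-fold after median centring (−0.60 for Ddit4, −0.65 for Adm), Adm also after quantile normalization (−0.73) and Ddit4 after normexp correction (−0.92).

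Vegfa, the main growth factor of blood vessels, read 0.90, 0.73 and 0.58 in esophagus, stomach and intestine by its brightest probe. A second probe gave −0.32 for intestine minus esophagus as well, and the third gave −1.79, from 0.44 in esophagus to −1.35 in intestine. Bnip3, which acts in mitophagy, read 2.06, 1.50 and 1.65, and Ankrd37, an ankyrin repeat protein, 0.04, −0.01 and −0.39. P4ha1 and P4ha2, the catalytic subunits of collagen prolyl hydroxylase, read −0.94, −1.37 and −1.30, and 1.03, 0.78 and 0.20. These genes were all highest in esophagus and within 2-fold of it by the probe used. Ndrg1 and Car9 differed from the others in sign. Ndrg1, a stress-responsive gene, read 0.75, 1.49 and 1.51, so esophagus was the low organ, by 0.74 and 0.76. Car9, a carbonic anhydrase of the cell surface, read −3.28, −2.89 and −2.95. The targets therefore did not move as 1 block, and their median was −0.25 for stomach minus esophagus, −0.41 for intestine minus esophagus and −0.14 for intestine minus stomach.

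By organ, 18 of 33 genes (54.5%) were highest in esophagus, against 27.5% of all genes measured on the 3 arrays. After quantile normalization the shares were 63.6% and 27.4%, after normexp correction 18 of 33 genes and 3222 of 12864, and after median centring 27.3% and 14.5%. The median of the set was −0.11 for stomach minus esophagus, −0.26 for intestine minus esophagus and −0.05 for intestine minus stomach. The sign of each median depends on the scaling: after median centring they were 0.09, 0.24 and 0.25. The median of all genes moved along, from 0.15, 0.13 and −0.02 to 0.35, 0.62 and 0.27. Relative to all genes the set lay at −0.26, −0.39 and −0.02 with the 75th percentile, at −0.26, −0.38 and −0.02 after median centring, and at −0.37, −0.42 and 0.00 after quantile normalization. After normexp correction these were −0.30, −0.20 and 0.12. The 2 comparisons with esophagus share its array, so they do not support each other.

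**Figure D3:**
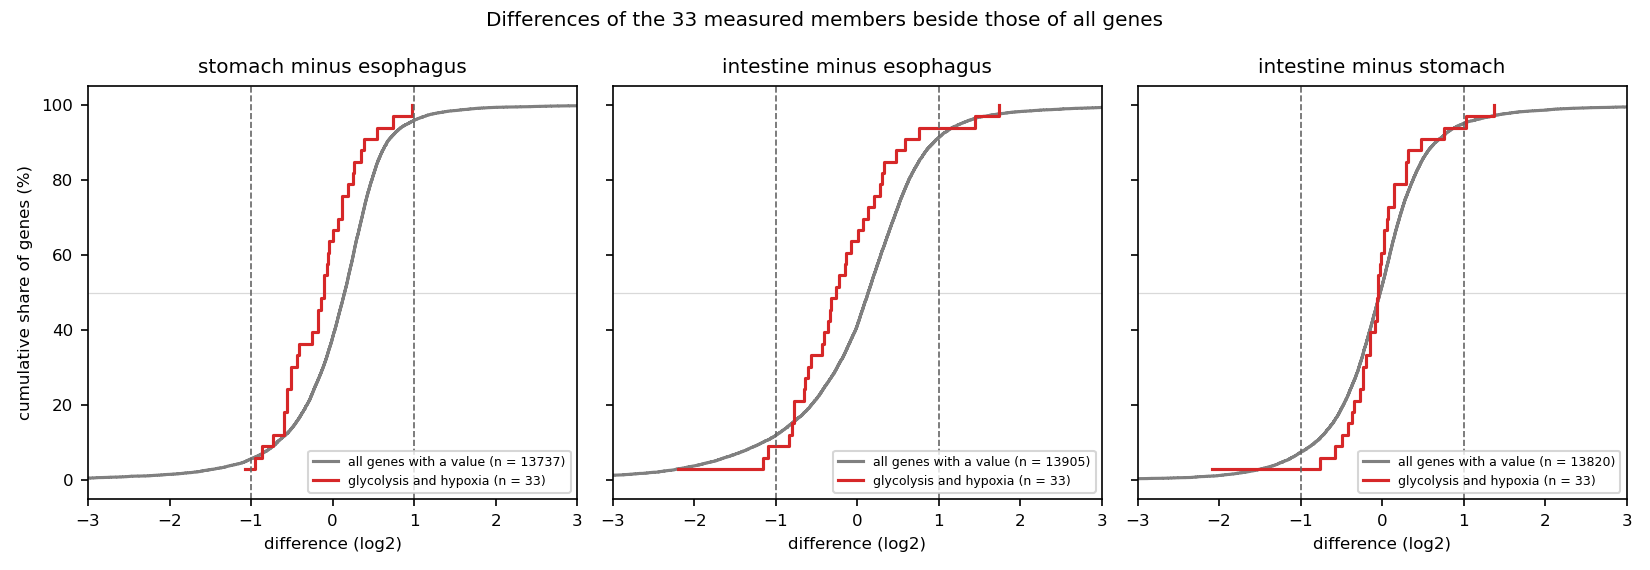
Cumulative share of genes (y axis, %) by difference between organs (x axis, log2) for the 33 measured genes of the set (red) and for all genes with a value (grey), 1 panel per comparison, with dashed lines at 2-fold. The red curve lies to the left of the grey one in its middle part in both comparisons with esophagus (medians −0.11 against 0.15 and −0.26 against 0.13), and the curves cross near 0 for intestine minus stomach.

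Of 25 glycolytic genes outside the set 24 had a value against esophagus. In stomach 0 of them stood 2-fold higher, beside 4.14% of all genes. Pgam2 and Pdk4 stood over 2-fold lower there. Pgam2, the muscle mutase, read 1.54 in esophagus, −3.01 in stomach and −3.12 in intestine, and Pdk4, a kinase of the same family as Pdk1, −2.80, −4.52 and −3.86. Heart genes had the same high organ (summed level 132, 3.55 and 4.12), and their part was not tested. The widespread forms differed less: Gapdh read 6.38, 7.02 and 6.88, and Pkm 4.20, 4.58 and 4.75, both lowest in esophagus. The median of these genes was 0.10 for stomach minus esophagus, 0.19 for intestine minus esophagus and 0.10 for intestine minus stomach.

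Other genes of the hypoxia response also went both ways. Of 27 genes 25 had a value in each comparison. For intestine minus esophagus 3 of 25 were at least 2-fold higher and 2 lower, beside 8.74% and 12.0% of all genes. In either direction 5 of 25 were apart, beside 20.7% of all genes, so the share of this list was no larger. The median was −0.33, beside 0.13 for all genes. Lox, the collagen crosslinking oxidase, read −0.17, −3.44 and −5.04 for a difference of −4.87 between intestine and esophagus. Loxl2, of the same family, stood at −1.18. Tfrc, the transferrin receptor, was 2.07 higher in intestine than in esophagus, and Car12, a carbonic anhydrase, 1.91 higher. Arnt, the partner of the alpha subunits, stood at −0.51 and Egln2 at 0.35. The erythroid marker list, whose cells also carry Tfrc, summed to 347 in esophagus, 485 in stomach and 341 in intestine (9 of 9 well above background), a different order from that of Tfrc.

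In the tricarboxylic acid cycle, which oxidises the products of pyruvate, none of 13 genes was 2-fold apart in any comparison. Of all genes 9.85% to 20.7% were. For intestine minus esophagus 12 of 13 had positive differences, with Idh3b at 0.99 and Dlst at 0.80, and the median was 0.41 beside 0.13 for all genes. Positive was also the more common sign among all genes, of which 41.2% were negative. Of the 13 differences 7 lay within the SD between probes of 1 gene (0.46). The 21 glycolytic genes of the set had a median of −0.23 there. The 24 other glycolytic genes, at 0.19, lay on the side of the cycle. The 6 measured pentose phosphate genes, which branch off glucose 6-phosphate, all had positive values for stomach minus esophagus, where 38.0% of all genes were negative. Their median was 0.52, beside 0.15 for all genes, with Pgls at 0.87 and G6pdx at 0.63. For intestine minus stomach 4 of the 6 were negative, beside 51.8% of all genes (median −0.14, beside −0.02). Of these 6 differences 5 lay within the SD between probes of 1 gene (0.31). In the gluconeogenesis and glycogen list 10 of 11 genes had a probe. Fbp2, the muscle fructose bisphosphatase, was not well above background in esophagus, and stomach exceeded it by at least 4.39-fold. Pygm, the muscle glycogen phosphorylase, differed by −2.46 between stomach and esophagus.

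**Figure D4:**
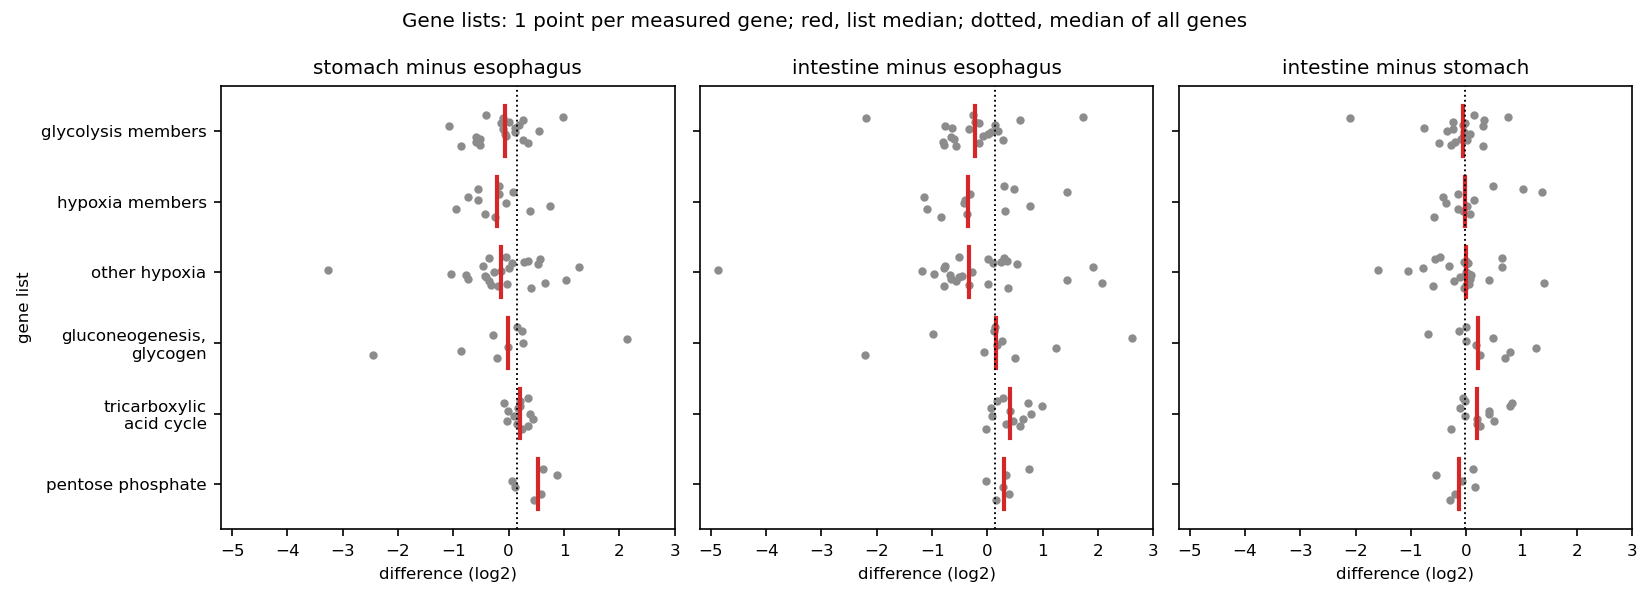
Difference between organs (x axis, log2) of each measured gene (grey points) in 6 gene lists (y axis), in 3 panels, 1 for each comparison, with list medians in red and the median of all genes dotted. None of the 13 points of the tricarboxylic acid cycle lies past 2-fold, while the farthest point is Lox (−4.87 for intestine minus esophagus).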

How the data were processed

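The deposited scanner files give a processed intensity per spot, background-corrected within each array and not scaled between arrays. Per the file headers the software was Agilent's Feature Extraction, version 10.5.1.1. The deposited log2 value table was within 0.01 of the scanner values for 99.8% to 99.9% of probes after removal of 1 constant per array, and served as an alternative. Flags of the scanner software, also deposited, marked outlier spots (left out), control spots and spots well above background.

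Here log2 of the processed intensity minus the array's 75th percentile over the 43379 spots that were not controls was averaged per probe. Accessions without versions were matched to RefSeq (GRCm38.p6), which named 24342 of 41112 probes, and the brightest probe stood for a gene. Genes dim on both arrays of a comparison were left out. Where 1 array was dim, the difference is a bound against the higher of that array's lowest signal well above background and the probe's own, written "at least", and bounds of 1-fold or less gave no value. Called means at least 2-fold. The counting steps were tested on simulated data. Relative to the 75th percentile the spike-in controls read 1.88 (esophagus), 1.98 (stomach) and 1.08 (intestine), so levels are relative and not amounts of RNA per tissue. The extraction text of the labels speaks of stomach for all samples, and organs were taken from titles.

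All 34 genes could be named, and genes of the context lists where a count turned on them, those with the largest differences first. Gapdh, Pkm, Arnt, Egln2, Idh3b, Dlst, Pgls and G6pdx were added after their values were seen. The genes and lists were chosen with earlier results of these data known. Normexp correction and quantile normalization used limma 3.58.1 in R 4.3.3. Normexp correction took the median spot signal in place of the mean signal, with an offset of 50. Quantile normalization took log2 of the processed intensity. 1 gene of the context lists is not reported here.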

Additional observations from a re-analysis of the deposited data

How the results depend on the processing

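The alternatives were normexp background correction, quantile normalization, median centring, the deposited value table, both arrays well above background, no filter on dim probes, the median over a gene's probes, and the probe with the largest difference. No gene called 2-fold apart changed sign under any of the 8. Slc2a3 and Egln3 stayed past 2-fold for intestine minus esophagus under all of them (1.57 to 2.24 and 1.34 to 1.95), Egln3 also against stomach (1.28 to 1.67), and Hk1 stayed lower than in esophagus (−2.21 to −1.70). Slc2a3 and Egln3 each have 1 probe, well above background on all 3 arrays. For them the settings on dim probes and on the choice of probe could not change the value. The deposited table differs from the scanner values by little more than 1 constant per array. Median centring, which shifts every gene of an array by 1 constant, gave 1 gene higher and 0 lower for stomach minus esophagus. For intestine minus esophagus it gave 4 higher and 1 lower with a median of 0.24, against 2 and 3 and −0.26. Among all genes that comparison had 1215 higher and 1666 lower, but 3779 and 963 after median centring, 1855 and 1349 after quantile normalization, and 657 and 1736 after normexp correction. For stomach minus esophagus the counts were 569 and 784, in the same order 950 and 571, 823 and 673, and 165 and 273, and for intestine minus stomach 686 and 1033, then 1264 and 577, 862 and 712, and 269 and 1737. The median over probes gave 0 lower for stomach minus esophagus, because Pfkp came to −0.53, and 1 higher for intestine minus stomach, because Egln1 came to 0.68. The probe with the largest difference gave 5 lower for intestine minus esophagus and 3 lower for intestine minus stomach, which adds Pfkfb3 and Vegfa. A like count did not always mean the same gene: for stomach minus esophagus the 1 lower gene was Ldha after normexp correction and Ddit4 after quantile normalization. Pfkfb3 was also past 2-fold for intestine minus esophagus by the median over probes (−2.39). Of 10 genes with several measured probes, 3 had probes on both sides of 2-fold for intestine minus esophagus and 4 for intestine minus stomach. Dim probes such as that of Epas1 allow no fold. No paired analysis was possible because each organ has 1 array, with the replicate number 1.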
